A study of Homo sapiens with 18 samples.

Results

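The mevalonate arm of cholesterol synthesis was followed here through 9 enzymes, ACAT2, HMGCS1, MVK, PMVK, MVD, IDI1, FDPS, GGPS1 and FDFT1, out of 36576 genes in the expression table. The genes were matched by symbol, and all 9 were found. They were chosen by their place in the pathway after earlier results on the input RNA of these libraries were known, in which genes of cholesterol synthesis were higher under titanium dioxide, with ACAT2 among them. The values under titanium dioxide are therefore given as a description. They went through the same fit as the others, but nothing is read from their calls. All 9 passed the filter on low values, a mean of at least 1 FPKM (fragments normalised for transcript length and sequencing depth) over the 9 input libraries.

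The label of the cells is A549, a line derived from a human lung adenocarcinoma, and the study asked how 2 nanomaterials affect RNA methylation in lung cancer cells. The 3 groups were untreated cells, cells exposed to BPQD at 10 mg/L and cells exposed to TiO2 (titanium dioxide) at 100 mg/L, both for 24 h. Each group had 3 input RNA libraries and 3 libraries made after immunoprecipitation of RNA carrying N6-methyladenosine (m6A), a methyl mark on adenosine in mRNA. The exposures differed in dose as well as in material, and all libraries carry the label of the same cell line. Nothing in the labels says that replicates came from separate cultures, so the tests measure only the spread between these libraries. All of it is bulk RNA, in which fewer cells of a type and less RNA per cell cannot be told apart.

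The pathway builds isoprenoids from acetyl-CoA. ACAT2 joins acetyl-CoA units to acetoacetyl-CoA, and HMGCS1 adds another to give HMG-CoA, the precursor of mevalonate. MVK and PMVK phosphorylate mevalonate in sequence, MVD decarboxylates the product to isopentenyl diphosphate, and IDI1 isomerizes it. FDPS then condenses these units to farnesyl diphosphate. At that branch point FDFT1 commits carbon to squalene and sterols, while GGPS1 makes geranylgeranyl diphosphate, used to anchor small GTPases in membranes. Many genes of the pathway are known targets of SREBP-2, a transcription factor released from the endoplasmic reticulum when its sterol content falls.

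Promoter sequence is shown for 5 of the enzymes: HMGCS1, MVD, IDI1 and FDPS, which were higher under TiO2, and PMVK, which was lower. Under BPQD, PMVK was called lower, as were MVD and FDPS, and HMGCS1 and IDI1 were not called. The stretches lie before both the start of the gene model in the files and a RefSeq start site (GRCh38.p14, strand of the gene, 5′ to 3′). Capitals mark CCAAT, the NF-Y box, and GGGCGG, the Sp1 box, on either strand (ATTGG and CCGCCC on the other). The HMGCS1 stretch is chr5:43313513-43313662 on the minus strand, MVD is chr16:88663162-88663341 on the minus strand and IDI1 is chr10:1049171-1049369 on the minus strand. The FDPS stretch is chr1:155308616-155308747 on the plus strand and PMVK is chr1:154936720-154936969 on the minus strand. A further IDI1 stretch and a GGPS1 stretch, each of 250 bases, also lay before both starts but are not shown. Neither held CCAAT, and GGGCGG occurred 3 times in the IDI1 one and 0 times in the GGPS1 one. The stretches shown are thus a choice and do not give the share of enzymes with CCAAT.
HMGCS1: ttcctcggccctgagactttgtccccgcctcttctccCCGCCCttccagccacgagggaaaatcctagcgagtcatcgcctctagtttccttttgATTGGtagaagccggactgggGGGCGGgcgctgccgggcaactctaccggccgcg
MVD: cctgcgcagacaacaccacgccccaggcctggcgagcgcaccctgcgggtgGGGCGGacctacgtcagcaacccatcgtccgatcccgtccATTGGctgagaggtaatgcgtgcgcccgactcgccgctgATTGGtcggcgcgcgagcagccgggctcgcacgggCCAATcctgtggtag
IDI1: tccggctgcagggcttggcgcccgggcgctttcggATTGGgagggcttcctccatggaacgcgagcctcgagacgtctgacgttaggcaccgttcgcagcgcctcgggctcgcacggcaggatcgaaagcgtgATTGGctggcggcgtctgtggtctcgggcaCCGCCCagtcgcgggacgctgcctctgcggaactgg
FDPS: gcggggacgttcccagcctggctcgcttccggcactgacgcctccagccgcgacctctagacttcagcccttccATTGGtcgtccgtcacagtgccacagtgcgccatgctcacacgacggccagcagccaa
PMVK: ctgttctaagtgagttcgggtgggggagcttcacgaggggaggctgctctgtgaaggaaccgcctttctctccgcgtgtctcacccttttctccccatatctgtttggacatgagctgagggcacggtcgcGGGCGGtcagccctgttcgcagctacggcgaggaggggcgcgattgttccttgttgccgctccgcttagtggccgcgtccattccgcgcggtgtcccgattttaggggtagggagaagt

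RefSeq windows of 300 bases (250 before to 50 after a start) were matched for 7 of the 9 enzymes, 12 windows in all. CCAAT was found in 7 of the 12 windows, and in 34.6% of 34796 windows over all genes. PMVK was the only 1 of the 7 enzymes with no CCAAT in any window. However, PMVK had 1 window, while HMGCS1 had 2 and IDI1 and GGPS1 had 3 each. The 2 HMGCS1 windows overlap, as do 2 of the IDI1 windows, so the same letters can be counted more than once. Some windows of HMGCS1, IDI1 and GGPS1 also held no CCAAT. Any link between these letters and the direction of a gene was not tested. GGGCGG was found in 11 of the 12 windows and in 44.9% of all windows, the exception being 1 of the GGPS1 windows. The core of the sterol regulatory element searched for, TCACNCCAC, was in none of the 12 windows and in 1.12% of all windows, and CACGTG, an E-box, was in none of the 12 and in 7.20% of all. A match is a run of letters and not a measured site, and the lack of a match covers only these letters in these windows.

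The input libraries separated by group, with correlations of log2 values of 0.980 to 0.983 within groups and 0.966 to 0.975 between groups, and no pair of libraries was identical. With FPKM and no read counts, sequencing depth per library is unknown. Of 10 genes listed for the labelled line, 6 were near or below 1 FPKM: AKR1C1 reached at most 1.14 FPKM, AKR1B10 0.998, AKR1C2 0.139, ALDH1A1 0.116, NKX2-1 0.0970 and SFTPB 0.0336. NQO1 was at 47.0 to 56.9 FPKM, AKR1C3 at 2.30 to 5.32 and ALDH3A1 at 1.37 to 2.78, while CDKN2A, which is deleted in A549, was at 19.3 to 27.4 FPKM. Of 6 epithelial markers the keratins KRT7, KRT8 and KRT18 were at 206 to 582 FPKM, EPCAM was at 2.02 to 3.09, and KRT19 and CDH1 reached at most 0.624 and 0.409. The cells are called here by their label only. Of 4 leukocyte markers, PTPRC stayed at or below 0.0346 FPKM. The list summed to 11.0 to 13.1 FPKM in untreated cells, 11.7 to 12.8 under BPQD and 17.6 to 23.1 under TiO2, nearly all of it CD68, which also marks lysosomes. Summed fibroblast markers were 27.6 to 28.2 FPKM in untreated cells, 12.7 to 23.8 under BPQD and 25.9 to 35.2 under TiO2, mostly LUM, with COL1A2 at or below 0.104. COL1A1, PDGFRB and DCN were at 2.88 to 3.39, 3.09 to 3.29 and 0.856 to 1.04 FPKM in untreated cells. Under TiO2 they were lower, at 1.52 to 1.79, 2.03 to 2.45 and 0.417 to 0.497, and they were also lower under BPQD. The part of these marker genes in the results was not tested.

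Under TiO2 both early and late enzymes of the pathway were higher, and PMVK was lower. ACAT2, HMGCS1, IDI1 and FDFT1 stood at 2.04 to 2.74 times their untreated means, and MVK, MVD and FDPS at 1.32 to 1.59 times. GGPS1, not called, stood at 1.28 times and PMVK at 0.772 times. Under BPQD no enzyme was called higher, and MVD, ACAT2, FDPS, MVK and PMVK were called lower, at 0.645 to 0.893 times the untreated mean. The enzymes not called under BPQD were FDFT1 at 0.888 times, GGPS1 at 1.01, HMGCS1 at 1.03 and IDI1 at 1.15. Summed over the 9 enzymes, input RNA was 128 ± 0.669 FPKM (SD, n = 3) in untreated cells, 113 ± 1.66 under BPQD and 206 ± 7.04 under TiO2, and the 3 groups did not overlap in this sum.

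**Figure D1:**
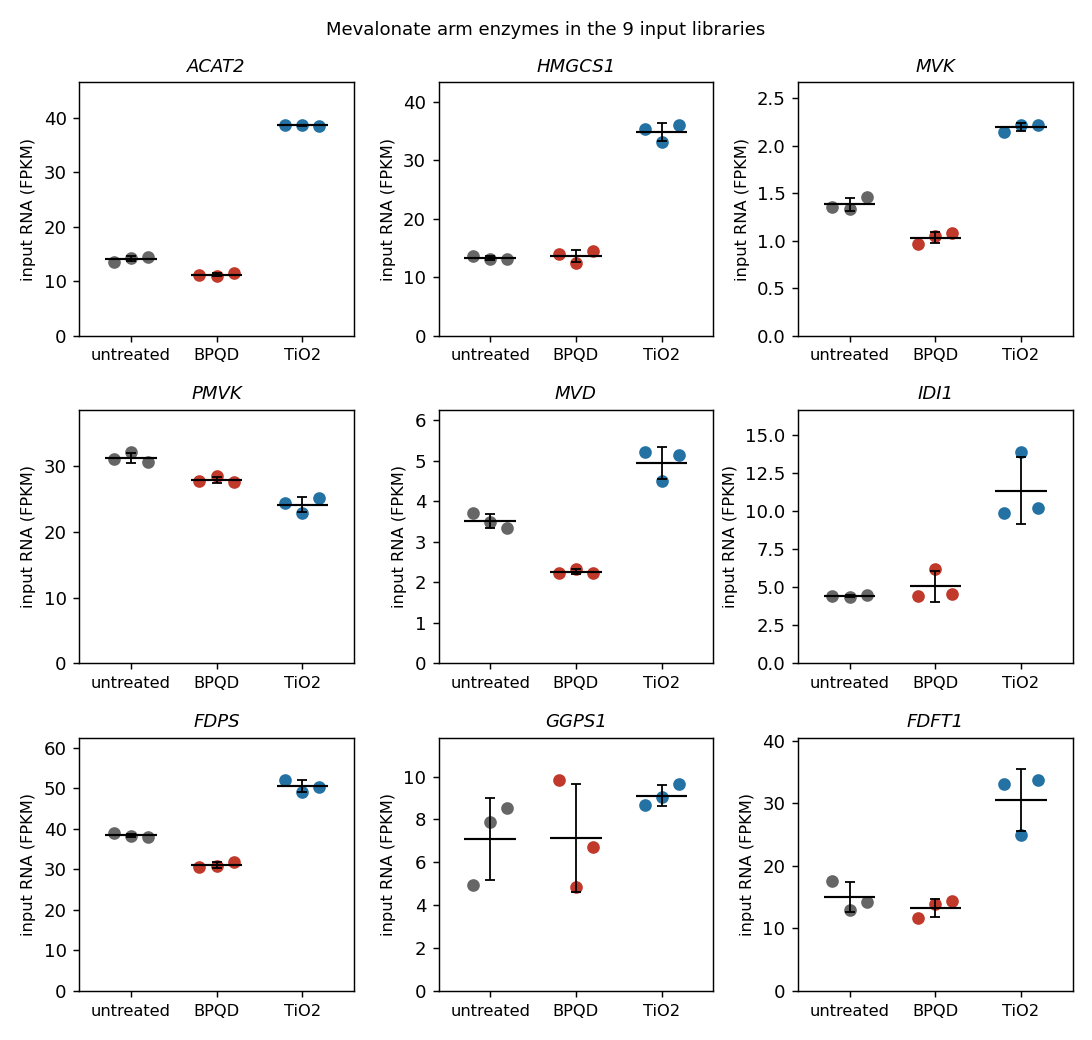
Input RNA of the 9 enzymes in FPKM (vertical axes, each starting at 0) in untreated, BPQD and TiO2 cells. Points are libraries (n = 3 a group), lines are means and bars are SD. The TiO2 points lie above all others for every enzyme but PMVK, where they lie below, and GGPS1, where 1 BPQD library is the highest.

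ACAT2 (ENSG00000120437, chromosome 6, 159760328 to 159779055), the first enzyme, had 13.6, 14.3 and 14.5 FPKM in untreated cells, 11.2, 11.0 and 11.5 under BPQD, and 38.8, 38.7 and 38.6 under TiO2. Its 3 groups did not overlap, and the TiO2 libraries differed from each other by less than those of any other enzyme relative to their mean. The fold change on the log2(FPKM + 1) scale was 1.39 ± 0.03 (SE) for TiO2 against untreated. For BPQD, ACAT2 fell by 0.31 ± 0.03 (limma adjusted p = 0.000150). ACAT2 shares its last 558 bases with TCP1 on the other strand, and whether the authors counted by strand is not stated. TCP1, a chaperonin subunit, had means of 56.3, 72.0 and 63.5 FPKM in untreated, BPQD and TiO2 cells, an order that differs from that of ACAT2.

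HMGCS1 (ENSG00000112972, chromosome 5, 43287470 to 43313512) had 13.6, 13.1 and 13.1 FPKM in untreated cells, 14.0, 12.4 and 14.5 under BPQD, and 35.3, 33.1 and 36.1 under TiO2. BPQD and untreated libraries overlapped, while each TiO2 library was above all others. The log2 fold change was 1.33 ± 0.06 for TiO2 and 0.04 ± 0.06 for BPQD (limma adjusted p = 0.641). ACAT2 and HMGCS1, the neighbouring steps before mevalonate, overlapped in level in untreated cells. The ACAT2 libraries lay below all of HMGCS1 under BPQD and above all of HMGCS1 under TiO2.

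The mevalonate kinases differed from each other in level, and under TiO2 but not under BPQD in direction. MVK (ENSG00000110921, chromosome 12, 109573255 to 109598125) had 1.35, 1.34 and 1.46 FPKM in untreated cells, 0.965, 1.05 and 1.08 under BPQD, and 2.15, 2.22 and 2.22 under TiO2. The groups did not overlap, with a log2 fold change of 0.42 ± 0.04 for TiO2. Under BPQD, MVK fell by 0.23 ± 0.04 (limma adjusted p = 0.00315). A pseudocount of 1 shrinks log2 changes of a gene at this level, and the ratio of means was 1.59 for TiO2. MVK starts within 326 bases shared with MMAB, a cobalamin enzyme read from the other strand. MMAB had means of 2.73, 2.40 and 3.57 FPKM in untreated, BPQD and TiO2 cells, the same order as MVK, and its part in the MVK values was not tested.

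PMVK (ENSG00000163344, chromosome 1, 154924740 to 154936719), which adds the second phosphate, had 31.0, 32.1 and 30.6 FPKM in untreated cells, 27.8, 28.4 and 27.5 under BPQD, and 24.4, 22.8 and 25.1 under TiO2. Both exposures lay wholly below untreated cells, TiO2 lowest. Its log2 fold change was -0.36 ± 0.04 for TiO2. PMVK fell by 0.16 ± 0.04 under BPQD (limma adjusted p = 0.0110), and this call was lost when the values were rescaled to TPM (fell by 0.11, adjusted p = 0.0700). Of the summed FPKM of the 9 enzymes, PMVK held 24.3% ± 0.694 in untreated cells, 24.8% ± 0.773 under BPQD and 11.7% ± 0.196 under TiO2 (SD, n = 3).

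MVD (ENSG00000167508, chromosome 16, 88651935 to 88663161), which makes isopentenyl diphosphate, had 3.70, 3.49 and 3.35 FPKM in untreated cells, 2.24, 2.33 and 2.23 under BPQD, and 5.21, 4.50 and 5.15 under TiO2. The 3 groups were apart. MVD fell by 0.47 ± 0.06 under BPQD (limma adjusted p = 0.000400), the biggest fall among the 9 enzymes in that contrast, and its log2 fold change for TiO2 was 0.40 ± 0.06.

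IDI1 (ENSG00000067064, chromosome 10, 1039152 to 1049170), the isomerase, had 4.41, 4.34 and 4.48 FPKM in untreated cells, 4.41, 6.23 and 4.55 under BPQD, and 9.92, 13.9 and 10.2 under TiO2. In each exposed group 1 library was well above the other two, while untreated libraries were close together. The TiO2 libraries were still all above the rest, with a log2 fold change of 1.18 ± 0.14. For BPQD it was 0.15 ± 0.14 (limma adjusted p = 0.433). IDI2, a relative of IDI1 known mainly from muscle, had a mean of at most 0.0217 FPKM in any group.

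FDPS (ENSG00000160752, chromosome 1, 155308748 to 155320666), the farnesyl diphosphate synthase, was the most abundant of the 9 in every group. It had 38.9, 38.3 and 38.1 FPKM in untreated cells, 30.6, 30.8 and 31.9 under BPQD, and 52.2, 49.2 and 50.4 under TiO2. The groups did not overlap, and the log2 fold change for TiO2 was 0.39 ± 0.03. FDPS fell by 0.30 ± 0.03 under BPQD (limma adjusted p = 0.000137). Its 7 listed pseudogenes reached at most 0.272 FPKM, although reads shared with them may have been split by the authors' counting. RUSC1-AS1 overlaps FDPS on the other strand and had means of 1.15, 1.15 and 1.09 FPKM in untreated, BPQD and TiO2 cells.

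GGPS1 (ENSG00000152904, chromosome 1, 235327350 to 235344532), at the geranylgeranyl branch, had the widest spread of the 9 relative to its mean in untreated and BPQD cells, though not under TiO2. It had 4.93, 7.86 and 8.51 FPKM in untreated cells, 9.85, 4.85 and 6.73 under BPQD, and 8.65, 9.04 and 9.64 under TiO2. BPQD and untreated libraries overlapped throughout, and the TiO2 libraries were just above the untreated ones. The log2 fold change was 0.35 ± 0.24 for TiO2, not called, and -0.01 ± 0.24 for BPQD (limma adjusted p = 0.979). The TiO2 value was 0.14 without untreated replicate 1 and 0.48 without untreated replicate 3. GGPS1 shares 15963 bases with a TBCE gene model on the same strand, so reads between them may have been divided. That TBCE model had 2.21, 0.874 and 1.40 FPKM in the untreated libraries and 0.708, 1.87 and 1.04 in the BPQD ones, so it was highest where GGPS1 was lowest in both groups. Under TiO2 it had 1.79, 2.24 and 0.663 FPKM, and there the library lowest in GGPS1 was not the highest in TBCE.

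FDFT1 (ENSG00000079459, chromosome 8), the squalene synthase at the sterol branch, had 17.6, 13.0 and 14.3 FPKM in untreated cells, 11.6, 14.0 and 14.3 under BPQD, and 33.1, 24.8 and 33.7 under TiO2. Untreated and BPQD libraries overlapped, and all TiO2 libraries lay above them. The log2 fold change was 0.98 ± 0.15 for TiO2 and -0.16 ± 0.15 for BPQD (limma adjusted p = 0.439). The ratio of the TiO2 to the untreated mean was 2.04 for FDFT1 and 1.28 for GGPS1, and the difference between these genes was not tested.

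**Figure D2:**
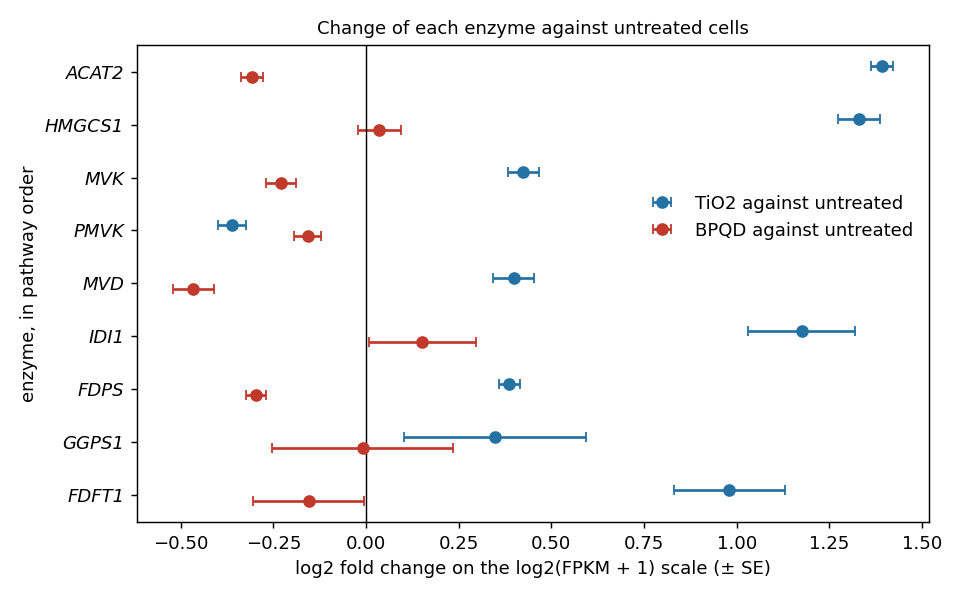
Log2 fold change on the log2(FPKM + 1) scale (horizontal axis) of each enzyme against untreated cells, in pathway order, with SE from the fit to all 9 input libraries. For TiO2 the values run from -0.36 (PMVK) to 1.39 (ACAT2), and for BPQD from -0.47 (MVD) to 0.15 (IDI1).

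By call at an adjusted p under 0.05, 7 of the 9 enzymes were higher and 1 lower under TiO2, where 17.3% of the 12224 genes tested were called higher and 20.5% lower. Since this contrast was known when the enzymes were chosen, nothing is read from that count. Under BPQD 0 were higher and 5 lower, where 20.6% of genes were called higher and 23.4% lower. The median log2 fold change of the enzymes was 0.42 for TiO2 and -0.16 for BPQD, and over all genes tested it was -0.02 and -0.01. Both exposures were set against the same 3 untreated libraries.

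Set directly against TiO2, BPQD cells had 7 enzymes lower, 1 higher (PMVK) and 1 not called (GGPS1), where 18.6% of genes were called lower and 19.0% higher. The TiO2 libraries enter this contrast too, so it is a description. The log2 differences, BPQD minus TiO2, ran from -1.70 ± 0.03 for ACAT2 to 0.20 ± 0.04 for PMVK, with a median of -0.86 against 0.00 over all genes tested. TiO2 means were 3.45 times the BPQD means for ACAT2, 2.55 for HMGCS1, 2.30 for FDFT1, 2.24 for IDI1, 2.19 for MVD, 2.13 for MVK, 1.63 for FDPS and 1.28 for GGPS1. MVK, MVD and FDPS, with modest TiO2 values against untreated cells, also fell under BPQD, as did PMVK and ACAT2, the latter with the largest TiO2 value.

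In FPKM, which is per transcript length, the levels in untreated cells ran from FDPS (38.4 ± 0.416) and PMVK (31.3 ± 0.779) through FDFT1, ACAT2 and HMGCS1 (15.0 ± 2.39, 14.1 ± 0.479 and 13.2 ± 0.312) to GGPS1 (7.10 ± 1.91), IDI1 (4.41 ± 0.0701), MVD (3.51 ± 0.181) and MVK (1.38 ± 0.0673; SD, n = 3 for each). The ranges of FDFT1 and ACAT2 overlapped, as did those of ACAT2 and HMGCS1, and the other neighbours in the order did not. Under BPQD the order was FDPS, PMVK, HMGCS1, FDFT1, ACAT2, GGPS1, IDI1, MVD and MVK, with overlap between HMGCS1 and FDFT1 and between GGPS1 and IDI1. Under TiO2 PMVK moved from the second to the fifth place, behind ACAT2, HMGCS1 and FDFT1, with ranges of FDFT1 overlapping those of both HMGCS1 and PMVK. FDPS was first and MVK last in all 3 groups. As shares of the summed FPKM, ACAT2 went from 11.0% ± 0.422 in untreated cells to 18.8% ± 0.661 under TiO2 and HMGCS1 from 10.3% ± 0.194 to 16.9% ± 0.211 (SD, n = 3), the counterpart of the smaller share of PMVK.

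The steps after squalene were described through 12 enzymes from squalene to cholesterol, 11 of which passed the filter (not TM7SF2). This list and those that follow were drawn up with earlier results known, so their TiO2 calls are counts from which nothing is read. Under TiO2 8 were called higher and 0 lower (17.3% and 20.5% of all genes tested), with a median log2 fold change of 0.48, and under BPQD 2 rose and 4 fell (20.6% and 23.4% of all genes tested), with a median of -0.17. SQLE, the epoxidase that follows FDFT1, had means of 5.96 FPKM in untreated cells, 6.79 under BPQD and 13.8 under TiO2. The log2 fold change of SQLE was 1.08 ± 0.04 for TiO2, and SQLE rose by 0.16 ± 0.04 under BPQD (limma adjusted p = 0.0167), the latter call being lost without untreated replicate 2 or without BPQD replicate 1 or 3 (adjusted p = 0.0539 to 0.0556). LSS, which closes the sterol ring, had a log2 fold change of 0.56 ± 0.05 for TiO2 and fell by 0.34 ± 0.05 under BPQD (limma adjusted p = 0.000757). DHCR7, a late sterol reductase, had a log2 fold change of 0.42 ± 0.14 for TiO2. That call was lost in TPM, without a filter, with only the 6 libraries compared and with the replicate block. It was also lost when any library other than TiO2 replicate 2 was left out. For BPQD the DHCR7 value was -0.37 ± 0.14 (limma adjusted p = 0.0707), called only with the 6 libraries compared or without TiO2 replicate 1.

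Sterol regulation was described through 15 genes, 14 of them tested (not ABCA1), of which 8 were called higher and 3 lower under TiO2, against 17.3% and 20.5% of all genes tested. Under BPQD 1 rose and 6 fell, against 20.6% and 23.4%. The medians were 0.28 and -0.19. INSIG1, which holds the SREBP complex in the endoplasmic reticulum, had a log2 fold change of 1.05 ± 0.05 for TiO2. SREBF2, which encodes SREBP-2, had 21.2, 15.9 and 21.8 FPKM in untreated, BPQD and TiO2 cells. Its log2 fold change was 0.04 ± 0.02 for TiO2 and not called, and SREBF2 fell by 0.39 ± 0.02 under BPQD (limma adjusted p = 1.35e-05). Under BPQD INSIG1 fell by 0.18 ± 0.05 (limma adjusted p = 0.0220), a call lost without untreated replicate 1 or 3, without BPQD replicate 2 or 3, and in TPM (adjusted p = 0.0583 to 0.0704).

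The 15 genes of the isoprenoid branches, which prenylate proteins or make dolichol, ubiquinone and related products, had 4 called higher and 2 lower under TiO2 (median 0.12), against 17.3% and 20.5% of all genes tested. Under BPQD 6 rose and 3 fell (median 0.03), against 20.6% and 23.4%. Under BPQD the lower calls were thus no larger a share than over all genes, while the higher calls were a larger one, a difference that was not tested. NUS1, a subunit of the enzyme that starts dolichol synthesis, rose by 0.44 ± 0.03 under BPQD (limma adjusted p = 5.82e-05) and had a log2 fold change of 0.20 ± 0.03 for TiO2, while its partner DHDDS had log2 fold changes of -0.05 ± 0.07 and -0.01 ± 0.07. PDSS1, which makes the ubiquinone tail, had a log2 fold change of 0.30 ± 0.05 for TiO2 and rose by 0.19 ± 0.05 under BPQD (limma adjusted p = 0.0229), the BPQD call being lost without untreated replicate 1 or 2 or BPQD replicate 1 or 3 (adjusted p = 0.0571 to 0.0741). Of 12 acetyl-CoA and ketone neighbours, 10 were tested, with 5 called higher and 1 lower under TiO2 (17.3% and 20.5% of all genes tested) and 1 higher and 5 lower under BPQD (20.6% and 23.4%). ACAT1, the mitochondrial counterpart of ACAT2, had a log2 fold change of 0.25 ± 0.02 for TiO2 and rose by 0.19 ± 0.02 under BPQD (limma adjusted p = 0.000518), so the paralogs went in opposite directions under BPQD.

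**Figure D3:**
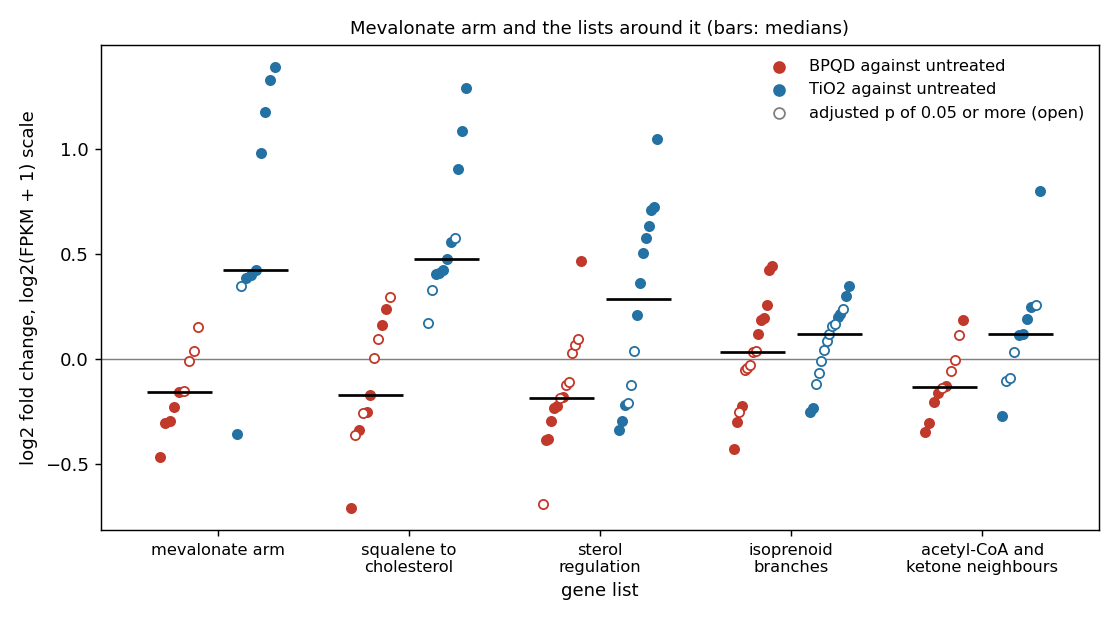
Log2 fold change on the log2(FPKM + 1) scale (vertical axis) against untreated cells for each tested gene of the 9 enzymes and of the other lists; bars are medians and open circles are genes with an adjusted p of 0.05 or more. The TiO2 medians are 0.42 for the mevalonate arm, 0.48 from squalene to cholesterol, 0.28 for sterol regulation and 0.12 for both remaining lists.

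Among other genes with a symbol and a mean of at least 1 FPKM, the 8 most like the mean standardized profile of the 9 enzymes over the 9 input libraries were FADS1, ACSS2, TBC1D2, F2R, FOLR1, TMSB4X, AVPI1 and SPOCD1, with Pearson r from 0.992 to 0.996. With 3 groups of 3 libraries such an r mostly follows the 3 group means, and it is a description. ACSS2, which makes acetyl-CoA from acetate, had means of 5.49, 4.10 and 10.3 FPKM in untreated, BPQD and TiO2 cells. FADS1, a fatty acid desaturase, had 19.7, 17.7 and 24.4, and FOLR1, a folate receptor, had 875, 675 and 1499 FPKM. Of the enzymes themselves, 7 had an r of 0.848 to 0.989 with the mean profile they form part of, GGPS1 had 0.557 and PMVK -0.694.

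The authors' deposited tables of differential m6A peaks held 22 entries for these enzymes, 15 of 14903 in the BPQD table and 7 of 12891 in the TiO2 table. MVD had none in either. Peak values come from immunoprecipitated against input RNA and are the authors' own, with no value per library and so no replicate spread to set beside them. The BPQD entries lay in 6 of the 9 enzymes and the TiO2 entries also in 6, where 54.4% and 51.2% of tested gene symbols had a peak. Of the BPQD entries 6 were higher and 6 lower at the authors' p under 0.05, where 37.7% of all its peaks were higher and 27.1% lower. Of the TiO2 entries 1 was higher and 5 lower, where 40.3% of all peaks were higher and 23.8% lower. The TiO2 entry of PMVK was not called. Some entries overlap each other, and merged they form 13 regions, 10 with a BPQD and 6 with a TiO2 entry. Of these 3 were in both tables, 30% of the BPQD and 50% of the TiO2 regions, and both tables use the same untreated libraries.

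The shared regions lay in MVK, IDI1 and FDPS. In MVK an exon peak (chromosome 12, 109589663 to 109589932) had a log2 fold change of m6A enrichment of -2.33 with BPQD (p = 0.0324) and -2.10 with TiO2 (p = 0.0302) in the authors' deposited tables. In the authors' deposited tables the 5′ UTR peak of IDI1, which ends at the start of the gene model (chromosome 10, 1048421 to 1049170), had 1.03 with BPQD (p = 0.0537) and 0.981 with TiO2 (p = 0.0120). For the FDPS 3′ UTR (chromosome 1, 155320291 to 155320708) the authors' deposited tables listed -0.130 and -0.119 with BPQD (p = 0.000708 and 0.00832) and -0.181 and -0.148 with TiO2 (p = 8.91e-08 and 0.000288). All of these FDPS entries also lie over the RUSC1-AS1 model on the other strand, whose mean input RNA was 1.09 to 1.15 FPKM. Its part in them was not tested. The MVK and IDI1 peaks thus moved by several times more on the log2 scale than those of FDPS, whose p was nevertheless the smallest. The MVK entries had an FDR of 0.126 and 0.133 in the authors' deposited tables, and neither they nor the IDI1 entries of this region pass an FDR under 0.05. Input RNA of MVK and of FDPS was lower with BPQD and higher with TiO2.

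The other BPQD entries lay in ACAT2, IDI1, FDPS, GGPS1 and FDFT1, and 11 of the 15 overlap another gene model. All 4 ACAT2 entries (chromosome 6, 159760597 to 159761671) had lower values, from -2.05 (p = 0.0380) and -1.88 (p = 0.0166) to -0.698 (p = 0.0692) and -0.612 (p = 0.0977) in the authors' deposited table. They are annotated to its 5′ UTR but lie 374 to 1313 bases before the RefSeq start of ACAT2 and within SOD2 and SOD2-OT1 models on the other strand. The authors' deposited table listed values of 1.23 (p = 0.00105) and 1.04 (p = 0.00257) for 2 overlapping IDI1 entries annotated to an exon of IDI2-AS1. The FDPS 5′ UTR (chromosome 1, 155308778 to 155309138) had -0.234 (p = 4.17e-07) in the authors' deposited table, with no other model over it. GGPS1 had 2 wide 5′ UTR entries (6799 and 2009 bases, both also over the TBCE model) at 0.217 each in the authors' deposited table (p = 0.00112 and 6.17e-05). For FDFT1 the authors' deposited table gave 1.01 (p = 5.25e-07) over 4768 bases of the 5′ UTR, and 3.97 (p = 0.00562) in an exon of AC069185, a gene model on the other strand. Mean input RNA of these SOD2, SOD2-OT1, IDI2-AS1 and AC069185 models was at most 0.136 FPKM in any group.

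In the TiO2 table the remaining entries were in HMGCS1, PMVK and FDFT1. HMGCS1 had -0.103 (p = 0.0141) in the authors' deposited table at a 5′ UTR exon inside the gene (chromosome 5, 43298495 to 43298974). The 3′ UTR of FDFT1 had -0.182 (p = 2.57e-05) in the authors' deposited table, and the 3′ UTR of PMVK (chromosome 1, 154925005 to 154925123) had 0.228 (p = 0.163). Of the enzymes with the largest fold changes of input RNA under TiO2, ACAT2 had no TiO2 entry, HMGCS1 and FDFT1 had small lower values, and IDI1 had a higher one. By place, the 7 TiO2 entries were 2 in 5′ UTRs, 4 in 3′ UTRs and 1 in another exon, and the 15 BPQD entries were 9, 2 and 4. The median size of the log2 fold change, ignoring sign, was 1.01 over the BPQD entries and 0.182 over the TiO2 ones, against 0.417 and 0.343 over all peaks of those tables. The BPQD median counts overlapping entries separately. It also includes the ACAT2 entries before the RefSeq start and those annotated to exons of IDI2-AS1 and AC069185, so it is not a measure of the enzymes alone.

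**Figure D4:**
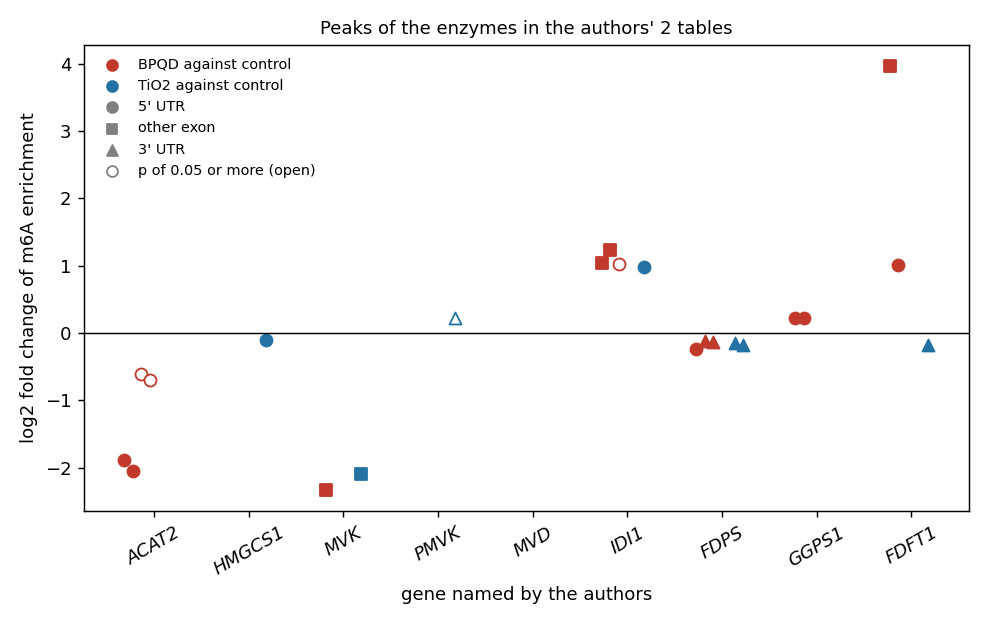
Log2 fold change of m6A enrichment (vertical axis) of each peak entry of the 9 enzymes in the authors' deposited tables, by gene; colour is the exposure, shape the place in the gene, and open symbols have p of 0.05 or more. Values run from -2.33 (MVK, BPQD) to 3.97 (FDFT1, BPQD, an entry annotated to an exon of AC069185), and MVD has no entry.

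The core letters of the m6A consensus could be looked for only where a peak lies under a RefSeq window. In IDI1, 300 bases of the 5′ UTR peak held GGAC 3 times, 1 of them as GGACT. A stretch of 101 bases at the end of that peak (1049070 to 1049170), which in part overlaps those 300 bases (1048837 to 1049136), held none. In GGPS1, 300 bases held GGAC 2 times, 1 of them as GGACT, and another 160 bases held GGAC 1 time, while 138 bases of the FDPS 5′ UTR peak held none. These are letters on the strand of the gene and not measured methylation sites.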

How the data were processed

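The 9 enzymes and the pathway lists were chosen with earlier results of these data known. Libraries were assigned to groups by their titles. Per the file headers, the authors deposited FPKM for 36576 genes in the 9 input libraries and a peak table per exposure. Per the file headers, the authors list there for each peak the log2 change in m6A enrichment, a p-value and the log of an FDR, read as log10 and used here as a score. The sources used here do not name the peak caller or say whether replicates were pooled. Per the submitters' processing notes, HISAT2 and StringTie 1.3.0 were used, with mm10 listed as the build. The gene IDs are human, and of 24582 symbols found in RefSeq on GRCh38.p14 100% lay on the same chromosome and 97.9% had an end within 1000 bases, so coordinates are read as GRCh38.

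Values were tested as log2(FPKM + 1) for 12224 genes (mean FPKM 1 or more), with limma 3.58.1 in R 4.3.3: 1 fit of 3 group means to all 9 input libraries, two-sided moderated tests with a trend in the prior variance, and Benjamini-Hochberg adjustment over all genes tested. FPKM is no count, so no count model was fitted, and 3 libraries a group set the precision. The script was checked on simulated data. Alternatives were a pseudocount of 0.1, a minimum of 5 FPKM and none, TPM, median centring, quantile normalization, only the 6 libraries compared, a replicate block and each library left out. For peaks, p under 0.01, FDR under 0.05 and 50% overlap were tried. Same-numbered libraries of different groups had correlated deviations of -0.0830 to 0.0733, so the numbers do not pair them. Genes named are the 9 enzymes, pathway genes listed by function and the 8 genes most alike in pattern; some of the listed genes are not reported here.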

Additional observations from a re-analysis of the deposited data

How the results depend on the processing

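Of the fold changes of the 9 enzymes recomputed under the alternatives, 444 kept their direction and their side of the threshold, 1 lost its call (PMVK with BPQD in TPM, adjusted p = 0.0700) and 8 changed sign, none of them called. GGPS1 with BPQD became 0.042 in TPM, 0.013 with median centring and 0.0087 with quantile normalization, and ran from -0.24 to 0.21 when each library was left out. HMGCS1 with BPQD ran from -0.0059 to 0.10 likewise. DHDDS ran from -0.11 to 0.035 with BPQD, from -0.031 to 0.0093 with TiO2 and from -0.10 to 0.045 for BPQD against TiO2, and was 0.0043 with TiO2 in TPM. With a minimum of 5 FPKM the BPQD contrast called 1780 genes lower and 3 enzymes lower, since MVD and MVK were no longer tested, the TiO2 contrast called 1564 genes lower, and BPQD against TiO2 called 1371 higher and 1461 lower. In TPM BPQD against TiO2 called 3636 higher. The share called higher among called genes was 46.9% for BPQD (59.4% in TPM) and 50.5% for BPQD against TiO2 (64.1% in TPM, 61.5% without a filter). Of the enzymes' peaks, 3 were lower with BPQD at the authors' p under 0.01 and 3 at FDR under 0.05, against 6, and with TiO2 0 were higher and 3 lower under either, against 1 and 5. With the replicate block the calls of the 9 enzymes were unchanged in number (5 lower with BPQD, 7 higher and 1 lower with TiO2), and 2352 and 2644 genes were called higher and lower with BPQD and 1907 and 2253 with TiO2. Where no cause is named here, the cause was not tested. Depth is unknown, so the floor for low genes such as MVK cannot be given.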
